A study of Mus musculus with 2 samples.

Results

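The genes described here encode 9 RNA-binding proteins that control the fate of germ cells: Nanos2, Nanos3, Dnd1, Dazl, Ddx4, Lin28a, Lin28b, Pum2 and Elavl2. They were selected by symbol. All 9 were found among the 23320 gene symbols shared by both files. Each had an RPKM (reads mapped to a gene, scaled by its exonic length and by the size of the library) above 1 in both libraries. RNA-seq was done on primordial germ cells (PGCs, the embryonic precursors of eggs and sperm) infected at an MOI of 5 with a control lentivirus or with a lentivirus carrying Klf9 (Klf9-OE), and cultured for 1 day. Both groups were GFP-positive cells sorted from E13.5 genital ridges of embryos with the Oct4-deltaPE-GFP transgene, a germ cell reporter brought in by C57BL/6J-background males mated to MCH females. The methods of the paper name embryos of both sexes, and the labels do not give the sex or the number of embryos behind a library. The paper describes the culture as free of bFGF and the labels describe it as containing bFGF, for both groups alike. Each condition had 1 library, so no difference below has a replicate check, and the deposited 95% interval covers estimation within a library only.

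NANOS proteins are zinc finger proteins that bring mRNAs to the CCR4-NOT deadenylase, which shortens poly(A) tails, and DND1 is an RNA-binding partner of NANOS2 in that complex. DAZL acts on the 3′ UTRs of germ cell mRNAs together with poly(A)-binding protein, and DDX4, the mouse homologue of Vasa, is an RNA helicase of germ granules. LIN28A and LIN28B bind the precursors of let-7 microRNAs and block their maturation, and mature let-7 in turn binds Lin28 mRNAs. PUM2 is a PUF protein that binds Pumilio elements in 3′ UTRs, and ELAVL2 is a Hu protein that binds AU-rich elements.

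The sequences through which LIN28 and let-7 act on each other are shown first, because Lin28a and Lin28b were the members whose 3′ UTRs held let-7 seed matches. The let-7 microRNAs of the loci at which reads were counted share a seed, bases 2 to 8, given in capitals (RefSeq, GRCm38.p6).
let-7a-5p: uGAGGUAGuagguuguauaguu
let-7d-5p: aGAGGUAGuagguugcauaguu
let-7f-5p: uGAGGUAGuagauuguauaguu
GGAG, the letters bound by LIN28, was searched on the RNA strand and was found in the hairpins of 9 of the 12 let-7 family genes, against 44.5% of all 1005 mouse hairpins in the RefSeq table. It is in capitals in the hairpins of the same loci.
Mirlet7d, chr13:48536012-48536114, reverse strand: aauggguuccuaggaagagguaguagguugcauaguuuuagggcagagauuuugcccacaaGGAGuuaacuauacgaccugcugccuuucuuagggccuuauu
Mirlet7f-1, chr13:48537829-48537917, reverse strand: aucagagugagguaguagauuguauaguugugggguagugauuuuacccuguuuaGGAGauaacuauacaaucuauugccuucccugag
Mirlet7a-1, chr13:48538179-48538272, reverse strand: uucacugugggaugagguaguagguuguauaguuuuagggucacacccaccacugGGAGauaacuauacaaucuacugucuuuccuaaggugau
CTACCTC, which pairs with the seed, was searched on the sense strand of the 3′ UTR of 1 GENCODE transcript per gene. It occurred 2 times in Lin28a and 4 times in Lin28b, and was not found in the annotated 3′ UTRs of Nanos2, Nanos3, Dnd1, Dazl, Ddx4 and Pum2. Among 3′ UTRs of like length, the letters were present in 14.8% for Lin28a and 24.5% for Lin28b, and in 8.04% of all 20672. The sites are printed with their flanks, the match in capitals, and the mm10 (GRCm38) coordinates are those of the capitals.
Lin28a, chr4:134005190-134005196, reverse strand: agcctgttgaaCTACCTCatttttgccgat
Lin28a, chr4:134004552-134004558, reverse strand: tcgccacaaacCTACCTCactgtgttgaaa
Lin28b, chr10:45381023-45381029, reverse strand: gggcgggaagtCTACCTCatgcaagcacag
Lin28b, chr10:45378649-45378655, reverse strand: cttgttagtaaCTACCTCtgagtttgacat
Lin28b, chr10:45378477-45378483, reverse strand: acagcacatggCTACCTCccagctaccaca
Lin28b, chr10:45377061-45377067, reverse strand: gatggcaccgaCTACCTCttcaatcacttg

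The Pumilio element, TGTANATA, was searched in the same way because Pum2 is a member. It occurred 1 time in Lin28a, 2 times in Lin28b and 2 times in Pum2 itself, and was present in 42.6%, 56.2% and 43.7% of 3′ UTRs of like length. The elements are in capitals, with mm10 coordinates.
Lin28a, chr4:134004363-134004370, reverse strand: tggcctagttgTGTAAATAtaaatgtgttg
Lin28b, chr10:45380699-45380706, reverse strand: gtgtgtgtgtaTGTAGATAaaagcacatac
Lin28b, chr10:45380210-45380217, reverse strand: ggggagggtaaTGTATATAgtaacatggtc
Pum2, chr12:8750165-8750172, forward strand: gtttatagagaTGTATATAgaattatagtt
Pum2, chr12:8750418-8750425, forward strand: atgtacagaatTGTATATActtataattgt
The transcript used for Elavl2 has no annotated bases after its stop codon and could not be searched. These matches describe letters and not bound sites.

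In the files as a whole, the gene on the vector, Klf9, was at an RPKM of 2.27 (1.97 to 2.57) in control and 80.8 (76.97 to 84.5) in Klf9-OE. No read totals are given in the files, so the depth of the libraries is unknown. Among genes whose interval implied from 1 to 9 reads (within 0.06 of a whole number), the implied number was even for 36.4% of 2113 genes in control and for 88.9% of 1763 genes in Klf9-OE. Interval comparisons were therefore repeated with the Klf9-OE intervals widened by the square root of 2, as if each of its reads had been counted in a pair. Log2 fold changes are Klf9-OE minus control on the log2(RPKM + 0.1) scale, with the SE of estimation taken from the intervals. In bulk RNA, fewer cells of a type and less RNA per cell cannot be told apart.

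The RPKM of the members spanned a 72.4-fold range in control PGCs and an 80.8-fold range in Klf9-OE PGCs. The order from the highest to the lowest was Dazl, Ddx4, Dnd1, Lin28a, Elavl2, Pum2, Nanos3, Lin28b and Nanos2 in both. Intervals of neighbours in this order did not overlap, apart from those of Pum2 and Nanos3 in control and those of Elavl2 and Pum2 in Klf9-OE. Dazl in control PGCs exceeded 99.01% of the 18742 genes detected in either library, and Nanos2 exceeded 53.04%.

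**Figure D1:**
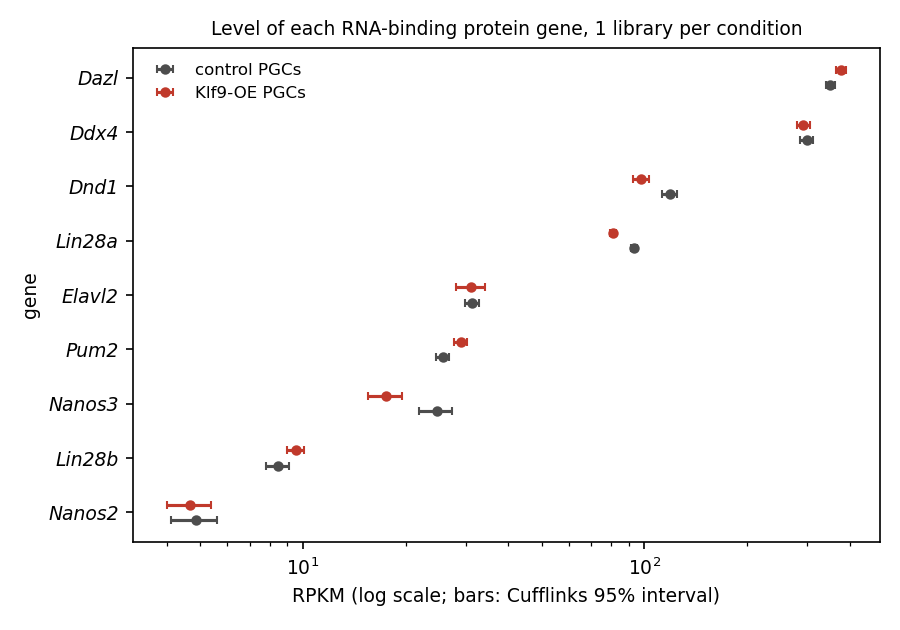
RPKM of the 9 genes on a log axis in control PGCs (grey) and Klf9-OE PGCs (red), 1 library each, with bars for the Cufflinks 95% interval. Dazl lies at the top (351 and 378) and Nanos2 at the bottom (4.85 and 4.68), and for Nanos3, Dnd1 and Lin28a the red bar lies clear to the left of the grey bar.

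The differences between the libraries were small, from -29.1% of the control RPKM for Nanos3 to 12.9% for Pum2. No member reached a 2-fold difference, which 7.72% of the 12565 genes at an RPKM of 1 or more in either library did. None reached 1.5-fold, against 16.0% of these genes. For 5 members the intervals were apart, that is, without overlap. They were Nanos3, Dnd1 and Lin28a, which were lower in Klf9-OE PGCs, and Dazl and Pum2, which were higher. Intervals were apart for 35.0% of the 12508 such genes with a single entry per file, 14.8% being higher and 20.2% lower in Klf9-OE PGCs. After widening, 4 members were still apart, 1 higher and 3 lower, without Dazl, against 28.6% of these genes (11.7% higher and 16.9% lower).
The median log2 fold change was -0.04 over the 9 members and -0.03 over the 12565 genes, and the median absolute value was 0.17 and 0.18. The value was below 0 for 6 members and above 0 for 3, and those of Nanos2, Ddx4 and Elavl2 crossed 0 on rescaling to the same sum.

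**Figure D2:**
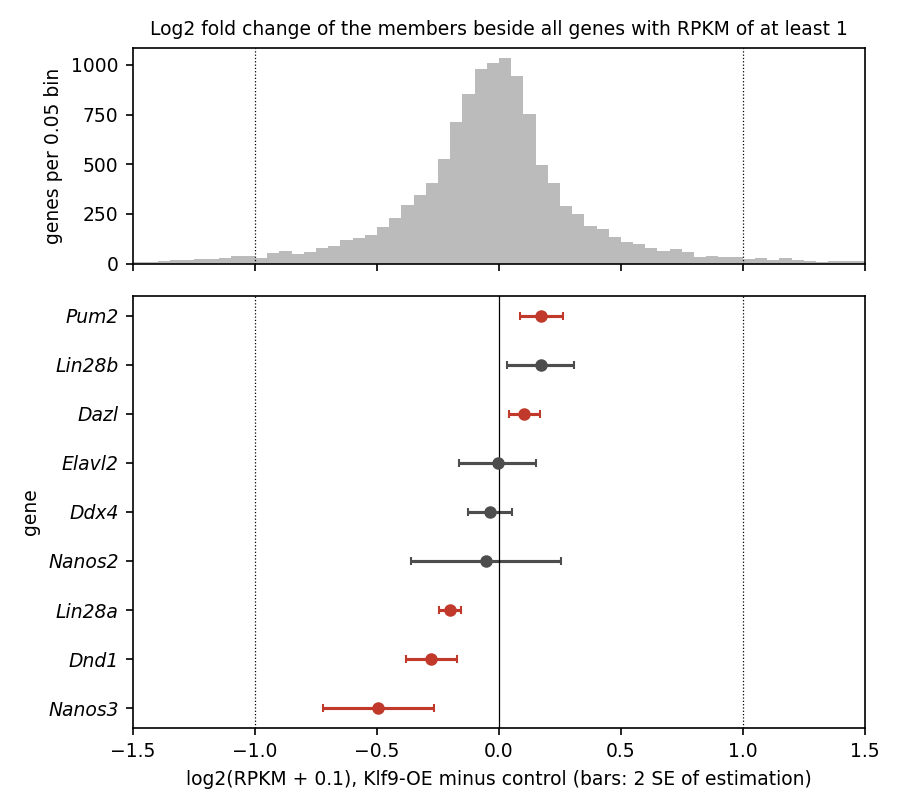
The upper panel counts genes with RPKM of at least 1 by log2 fold change (Klf9-OE minus control), with 499 of 12565 outside the drawn range. The lower panel gives the 9 genes with bars of 2 SE of estimation, in red where the intervals were apart, and no point reaches the dotted lines of a 2-fold difference.

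Nanos3, which protects migrating PGCs from cell death, differed most. Its RPKM was 24.6 (21.9 to 27.4) in the control library and 17.5 (15.5 to 19.5) in the Klf9-OE library, with a log2 fold change of -0.49 ± 0.11. The intervals lay 2.48 RPKM apart and did not meet after widening of the latter to 14.6 to 20.3. A larger absolute log2 fold change was found for 18.9% of genes with RPKM of at least 1. Nanos3 (chromosome 8, 84173733 to 84176552, 2 exons, reverse strand, GRCm38) shares no exonic bases with another gene in GENCODE. Its assembled locus ran from 84173521 to 84176806 in the control file and from 84173678 to 84176613 in the Klf9-OE file, and the part of this in the lower value of Nanos3 was not tested.
Nanos2, which represses meiosis in male germ cells, was the least abundant member. Its RPKM was 4.85 (4.09 to 5.61) in control and 4.68 (3.995 to 5.36) in Klf9-OE, and these intervals overlapped over most of their width. The log2 fold change of -0.05 had a range of -0.36 to 0.26 at 2 SE, so a difference of the size found for Lin28a was not detectable for Nanos2 at this depth. The interval widths as deposited correspond to 164 reads in control and 189 in Klf9-OE, the latter being fewer if reads were counted in pairs. Nanos3 was 5.08-fold above Nanos2 in control PGCs and 3.74-fold above it in Klf9-OE PGCs. Nanos2 (chromosome 7, 18987400 to 18988962, 1 exon, forward strand) shares 766 exonic bases with the antisense gene Gm45058, whose reads cannot be told apart in libraries without strand.

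Dnd1, whose loss depletes PGCs and leads to testicular teratomas, was also lower in the Klf9-OE library. The RPKM was 119 (113 to 125) in control and 97.9 (92.9 to 103) in Klf9-OE, a log2 fold change of -0.28 ± 0.05. The gap between the intervals was 9.53 RPKM, and after widening to 90.8 to 105 the Klf9-OE interval was still below that of control. Dnd1 (chromosome 18, 36763673 to 36766198, 4 exons, reverse strand) shares 138 exonic bases with Wdr55 on the opposite strand, a gene at 27.5 (25.4 to 29.7) in control and 28.7 (26.7 to 30.7) in Klf9-OE. The entry of Dnd1 was a reference gene in the control file and an assembled locus in the Klf9-OE file, with the same bounds in both.

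Dazl, which licenses PGCs of the gonad for sexual differentiation, was the most abundant member and slightly higher in Klf9-OE PGCs. The control library had 351 (340.2 to 363) RPKM and the Klf9-OE library 378 (366 to 389.9), a log2 fold change of 0.10 ± 0.03. The intervals were separated by 3.19 RPKM and overlapped once that of Klf9-OE was widened to 361 to 395. Ddx4 was at 299.9 (287 to 313) in control and 292 (279.6 to 305) in Klf9-OE, with overlapping intervals and a log2 fold change of -0.04 (-0.13 to 0.05 at 2 SE). The RPKM of Ddx4 was 0.853 times that of Dazl in control PGCs and 0.774 times in Klf9-OE PGCs. Both Dazl (chromosome 17, 50279397 to 50293636, 11 exons) and Ddx4 (chromosome 13, 112598335 to 112652475, 22 exons) are on the reverse strand.

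Lin28a, the more abundant Lin28 gene, was lower in Klf9-OE PGCs, while the intervals of Lin28b overlapped. Lin28a was at 93.3 (91.2 to 95.3) in control and 81.1 (79.3 to 82.8) in Klf9-OE, with a log2 fold change of -0.20 ± 0.02. Its intervals, the narrowest of the members at 2.22% and 2.16% of the value on either side, lay 8.36 RPKM apart, and they were apart after widening to 78.6 to 83.5. Lin28b was at 8.46 (7.81 to 9.10) in control and 9.54 (8.98 to 10.1) in Klf9-OE, with a log2 fold change of 0.17 ± 0.07 and an overlap of the intervals near their ends, which ended when Klf9-OE was rescaled to the same upper quartile or sum. Lin28a exceeded Lin28b 11.03-fold in control PGCs and 8.50-fold in Klf9-OE PGCs. Lin28a (chromosome 4, 134003330 to 134018841, 4 exons) shares 103 exonic bases with Gm13061 on the opposite strand. Lin28b (chromosome 10, 45376620 to 45470201, 5 exons) lies, like Lin28a, on the reverse strand. The assembled locus of Lin28b ran from 45376619 to 45470201 in control and from 45376516 to 45479090 in Klf9-OE, and the part of this in its values was not tested.
Of 10 let-7 family loci listed by themselves in the files, 7 were at 0 in both libraries. Mirlet7d was at 107 (19.7 to 195) in control and 117 (34.3 to 199.8) in Klf9-OE, and Mirlet7f-1 was at 35.5 (0 to 107) in control and 58.2 (0 to 141) in Klf9-OE. Mirlet7a-1 was at 54.5 (0 to 132) in control and listed at 0 in Klf9-OE. The hairpins of Mirlet7d, Mirlet7f-1 and Mirlet7a-1 are 103, 89 and 94 bases long, so a few reads give a high RPKM with a wide interval. These levels cannot be set beside those of Lin28a or Lin28b. Libraries of this kind do not measure mature microRNAs, and these values describe reads at the hairpin loci only.
Of 10 genes of let-7 biogenesis and uridylation, 9 had overlapping intervals and none differed 2-fold. Among genes with RPKM of at least 1, 35.0% had intervals apart and 7.72% differed 2-fold. Drosha, the nuclease that releases the hairpin, was at 65.4 (62.3 to 68.4) in control and 62.7 (59.8 to 65.6) in Klf9-OE. Zcchc11, the uridylase that LIN28A recruits to let-7 precursors, was at 31.9 (30.3 to 33.5) in control and 34.1 (32.5 to 35.7) in Klf9-OE. Its paralog Zcchc6, the gene apart, was at 9.73 (9.13 to 10.3) in control and 13.1 (12.5 to 13.8) in Klf9-OE, and is named after its values were seen. Of 16 let-7 targets and growth genes linked to Lin28, 4 were higher and 2 lower with intervals apart, a total near the 35.0% found over all genes with RPKM of at least 1, which are the genes meant by all genes below, and the median log2 fold change was 0.08. Hmga2 counted as overlapping with a control interval of 0 to 13759.8. Among them, the small GTPase gene Nras was at 28.6 (27.2 to 30.03) in control and 23.9 (22.6 to 25.1) in Klf9-OE, with intervals apart, and Trim71, an RNA-binding ubiquitin ligase, was at 28.3 (27.2 to 29.5) in control and 29.9 (28.5 to 31.3) in Klf9-OE, with overlap.

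Pum2, a repressor of its target mRNAs, was higher in Klf9-OE PGCs. Pum2 was at 25.7 (24.6 to 26.8) in control and 28.99 (27.8 to 30.2) in Klf9-OE, with a log2 fold change of 0.17 ± 0.04. The gap of 0.989 RPKM between the intervals shrank but did not close after widening to 27.3 to 30.7. Elavl2, which is expressed in neurons and germ cells, differed least of the members, at 31.3 (29.7 to 32.8) in control and 31.2 (28.1 to 34.2) in Klf9-OE and a log2 fold change of -0.01 (-0.16 to 0.15 at 2 SE). Elavl1, the ubiquitous Hu gene, was at 103 (95.5 to 111) in control and 81.3 (75.7 to 86.9) in Klf9-OE, with intervals apart also after widening. Elavl1 was 3.30 times Elavl2 in control PGCs and 2.61 times in Klf9-OE PGCs. Over the 8 paralogs of members measured, the median log2 fold change was 0.03, and -0.05 over the 7 with RPKM of at least 1. Pum2 (chromosome 12, 8674681 to 8752581, 21 exons) is on the forward strand and Elavl2 (chromosome 4, 91253240 to 91313403, 8 exons) on the reverse strand.

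KLF9 is known to bind GC boxes and related CACCC elements, so the promoters of Nanos3, Lin28a, Dazl and Pum2, members with intervals apart, are shown with these letters in capitals. GGGCGG and CACCC were searched on both strands of RefSeq promoters around the annotated start (GRCm38.p6, the build of mm10), written 5′ to 3′ on the strand of the gene.
Nanos3, chr8:84176503-84176802, reverse strand: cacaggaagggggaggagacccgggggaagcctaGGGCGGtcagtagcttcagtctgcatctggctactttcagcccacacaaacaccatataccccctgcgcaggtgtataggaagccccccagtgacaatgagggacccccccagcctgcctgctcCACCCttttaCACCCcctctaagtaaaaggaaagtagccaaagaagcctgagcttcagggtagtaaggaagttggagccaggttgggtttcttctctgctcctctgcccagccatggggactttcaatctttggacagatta
Lin28a, chr4:134018767-134019066, reverse strand: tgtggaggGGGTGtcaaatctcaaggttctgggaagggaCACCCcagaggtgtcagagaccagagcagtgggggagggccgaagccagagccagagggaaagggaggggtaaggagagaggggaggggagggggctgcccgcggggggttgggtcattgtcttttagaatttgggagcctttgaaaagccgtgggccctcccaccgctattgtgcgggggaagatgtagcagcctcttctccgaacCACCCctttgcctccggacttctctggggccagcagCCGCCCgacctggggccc
Dazl, chr17:50293571-50293870, reverse strand: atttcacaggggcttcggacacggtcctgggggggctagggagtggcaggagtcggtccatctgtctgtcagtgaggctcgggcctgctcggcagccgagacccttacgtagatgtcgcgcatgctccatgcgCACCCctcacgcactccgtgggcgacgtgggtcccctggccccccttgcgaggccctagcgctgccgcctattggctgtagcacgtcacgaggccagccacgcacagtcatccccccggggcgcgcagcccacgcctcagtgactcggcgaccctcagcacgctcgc
Pum2, chr12:8673884-8674183, forward strand: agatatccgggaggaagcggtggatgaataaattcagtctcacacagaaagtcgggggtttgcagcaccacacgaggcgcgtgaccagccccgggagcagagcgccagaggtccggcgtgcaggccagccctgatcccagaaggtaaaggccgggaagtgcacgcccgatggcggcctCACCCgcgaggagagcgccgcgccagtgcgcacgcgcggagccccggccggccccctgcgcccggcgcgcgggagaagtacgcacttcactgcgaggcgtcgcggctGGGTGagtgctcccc
GGGCGG occurred 1 time in the Nanos3 promoter, 1 time in that of Lin28a, and 0 times in those of Dazl and Pum2 shown. CACCC occurred 2 times for Nanos3, 3 times for Lin28a, 1 time for Dazl and 2 times for Pum2. Other annotated starts of Pum2 had GGGCGG in their windows. Members with overlapping intervals held the letters too. GGGCGG occurred 2 times for Ddx4, CACCC occurred 1 time for Nanos2, and windows of Elavl2 held up to 4 GGGCGG and up to 3 CACCC, while the window of Lin28b held neither. The 8 members searched, all except Dnd1, had 15 windows, of which 10 held GGGCGG and 11 held CACCC, some of them overlapping windows of the same gene. Of all 32851 promoters, 35.7% and 57.5% held them.

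Genes of the deadenylase to which NANOS2 and DND1 bring mRNAs lay on both sides. Of 22 CCR4-NOT and P-body genes, 3 were higher and 3 lower with intervals apart, beside 14.8% and 20.2% of all genes. None differed 2-fold, which 7.72% of all genes did. Of the 16 that overlapped, Cnot1 and Xrn1 had control intervals of 0 to 13814 and 0 to 13764, which overlap at nearly any level. Cnot2, a scaffold subunit, was at 78.3 (75.1 to 81.6) in control and 72.1 (69.3 to 74.9) in Klf9-OE, apart as deposited and not after widening. Cnot8, a catalytic subunit, was at 25.2 (23.4 to 26.99) in control and 19.5 (18.3 to 20.6) in Klf9-OE, and Tob1, which recruits the deadenylase, was at 11.6 (10.7 to 12.5) in control and 16.9 (15.9 to 17.9) in Klf9-OE, both apart after widening and both named after their values were seen. Of 6 genes of the poly(A)-binding and initiation machinery that DAZL works with, 4 were higher and 1 lower with intervals apart, where 14.8% and 20.2% of all genes were. Pabpc1, the main cytoplasmic poly(A)-binding protein gene, was at 639.7 (613 to 667) in control and 795 (767 to 823) in Klf9-OE, a log2 fold change of 0.31. Pabpc1l, the form of oocytes and early embryos, was at 0.535 (0.352 to 0.718) in control and 2.03 (1.21 to 2.84) in Klf9-OE and was the gene of this list past 2-fold. Pabpc4 lay on the other side, at 39.6 (37.6 to 41.5) in control and 33.4 (31.7 to 34.97) in Klf9-OE.

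RNAs reported as targets of NANOS2, DND1 or DAZL lay on both sides. Of 17 measured, 7 were higher and 5 lower with intervals apart, against 14.8% and 20.2% of all genes. None differed 2-fold, which 7.72% of all genes did, and the median log2 fold change was 0.05. Sycp3, a component of the meiotic chromosome axis and a target of DAZL, was at 541 (517 to 566) in control and 557 (532 to 581) in Klf9-OE, with overlap. Taf7l, a germ cell TFIID subunit gene, was at 286 (281 to 291) in control and 345 (332 to 358) in Klf9-OE, and Tex19.1 was at 157 (149 to 164) in control and 181 (172 to 189) in Klf9-OE, both with intervals apart. Dppa3, a PGC marker that protects DNA methylation in the zygote, was at 294 (279 to 309) in control and 179 (169 to 188) in Klf9-OE. Stra8, the meiotic inducer repressed by NANOS2, was at 119.6 (114 to 125) in control and 79.4 (75.7 to 83.04) in Klf9-OE, a log2 fold change of -0.59, and is named after its values were seen.
Nanos2 is a male and Stra8 at this age a female germ cell gene, and both were detected in both libraries. Xist, transcribed from the inactive X chromosome, was at 0.829 (0.739 to 0.920) in control and 2.05 (1.91 to 2.20) in Klf9-OE. The Y-linked Eif2s3y was at 59.04 (55.6 to 62.4) in control and 49.3 (46.5 to 52.2) in Klf9-OE, with intervals apart, and the intervals of Ddx3y, Kdm5d and Uty overlapped, with log2 fold changes of 0.19, -0.21 and 0.15. The part of the sex of the embryos in these values was not tested.

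Among 20 other RNA-binding protein genes of germ cells, 8 were higher and 5 lower with intervals apart, beside 14.8% and 20.2% of all genes, and the median log2 fold change was 0.08. Tia1, which encodes a stress granule protein, was the gene past 2-fold, at 3.73 (3.29 to 4.17) in control and 12.5 (11.1 to 13.8) in Klf9-OE. Its paralog Tial1, which PGCs need to survive, was at 23.1 (22.1 to 24.2) in control and 39.3 (37.4 to 41.3) in Klf9-OE, a log2 fold change of 0.76. Cpeb1, a regulator of cytoplasmic polyadenylation, was at 57.5 (54.95 to 60.1) in control and 77.9 (74.96 to 80.9) in Klf9-OE. In the other direction, Msi1, a translational regulator, was at 13.4 (12.3 to 14.6) in control and 6.999 (6.27 to 7.73) in Klf9-OE, and Ybx1, a cold shock domain protein gene, was at 185 (177 to 193) in control and 150.2 (143 to 157) in Klf9-OE. Tial1 and Msi1 are named after their values were seen. The absolute log2 fold changes of Tia1, Tial1 and Msi1 were above that of Nanos3, the member that differed most.

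**Figure D3:**
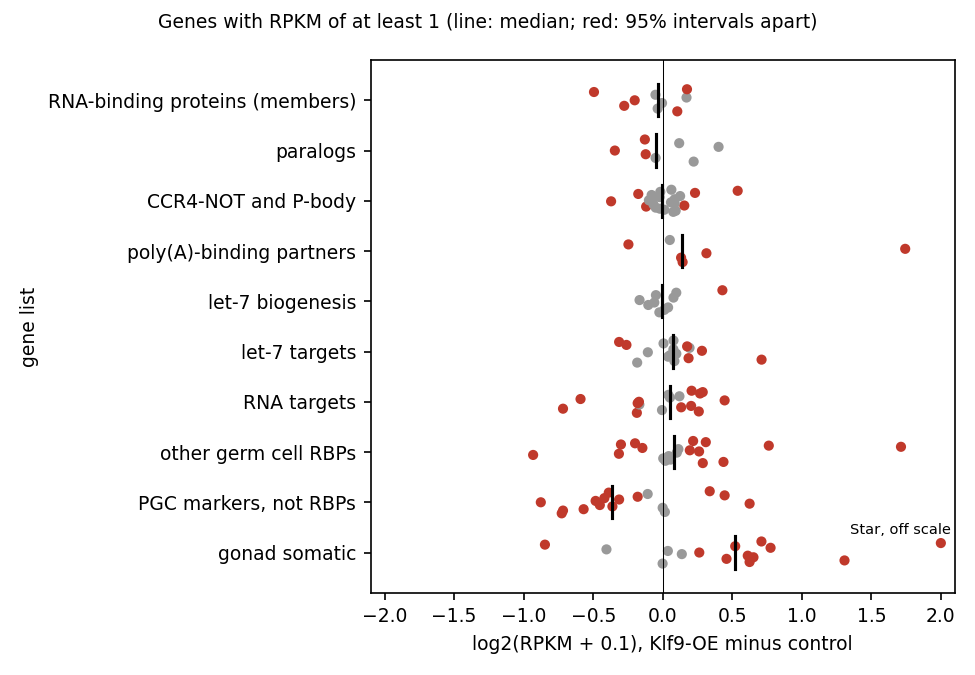
Log2 fold change (Klf9-OE minus control) of each gene with RPKM of at least 1 in 10 lists, 1 point a gene, red where the intervals were apart, with a line at each median. The median is -0.04 for the 9 RNA-binding protein genes, -0.36 for PGC markers and 0.52 for the 15 gonad somatic markers drawn. Star (4.64, listed at 0 in control) is drawn at the edge.

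Germ cell identity was checked with a list of 17 genes that mark or maintain PGCs and do not act on RNA, all with RPKM of at least 1. Of these, 11 were lower and 3 higher in Klf9-OE PGCs with intervals apart, against 20.2% and 14.8% of all genes. The 3 higher were Sox2, Utf1 and Kitl, and Kitl, the ligand of KIT, is made by supporting cells and not by PGCs. Kitl was at 1.80 (1.56 to 2.03) in control and 2.83 (2.57 to 3.08) in Klf9-OE. These genes are named after their values were seen. The summed RPKM of the 17 genes was 1483 in control and 1241 in Klf9-OE, and that of the 9 members was 958 and 941. The most abundant of the 17, Pou5f1, Dppa3, Stk31 and Hormad1, weigh most in their sum. Pou5f1, which encodes the pluripotency factor OCT4, was at 387 (375 to 399) in control and 277 (267 to 287) in Klf9-OE. Dppa3 was lower too, at the values given above. Stk31 was at 243 (228 to 258) in control and 225 (217 to 233) in Klf9-OE, with overlap. Hormad1 was at 178 (171 to 185) in both, also with overlap. Dazl and Ddx4, which are germ cell markers too, differed from control by 7.53% and -2.50%. Of 20 gonad somatic and endothelial markers, 10 were higher and 2 lower with intervals apart, against 14.8% and 20.2% of all genes. The 20 include genes below an RPKM of 1, Tek among them, and the shares leave such genes out. The summed RPKM of the 20 was 80.7 and 107, and their median log2 fold change was 0.27, or 0.52 over the 15 with RPKM of at least 1. Among them, Cdh5, an endothelial cadherin gene, was at 1.995 (1.66 to 2.33) in control and 5.09 (4.57 to 5.60) in Klf9-OE. Star, of steroid-producing cells, was listed at 0 (0 to 0) in control and at 2.39 (2.12 to 2.67) in Klf9-OE. Cyp11a1 overlapped, at 3.27 (2.63 to 3.91) in control and 3.60 (3.07 to 4.13) in Klf9-OE, and is named after its values were seen. The part of the separate assembly of each library in the 0 of Star was not tested. Tcf21 was listed at 0 in Klf9-OE. The lower genes were Sox9, of Sertoli cells, at 2.04 (1.76 to 2.31) in control and 1.09 (0.906 to 1.27) in Klf9-OE, and the endothelial receptor gene Tek, at 0.735 (0.574 to 0.896) in control and 0.439 (0.327 to 0.550) in Klf9-OE, named after their values were seen. The intervals of Tek overlapped after widening, and those of Sox9 did not. Amh, also of Sertoli cells, was higher, at 5.99 (5.20 to 6.78) in control and 9.29 (8.41 to 10.2) in Klf9-OE. The intervals of Amh were apart after widening too. Of 7 macrophage and blood markers, 6 had overlapping intervals, where 35.0% of all genes had intervals apart. Only 2 of the 7 had RPKM of at least 1, and wide intervals near 0 overlap easily. The count therefore does not show that the content of these cells was alike. The summed RPKM of the 7 was 4.60 and 5.78. Csf1r, the macrophage receptor gene, was at 0.307 (0.196 to 0.417) in control and 1.18 (0.834 to 1.53) in Klf9-OE, with intervals apart. The part of these cells in the lower values of Nanos3, Dnd1 and Lin28a was not tested.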

How the data were processed

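RNA of control and Klf9-OE PGCs was sequenced by the authors (TruSeq RNA v2, 51-mer single-end reads), mapped to mm10 with TopHat2 and Bowtie, and quantified with Cufflinks, whose versions are not given in the sources used here. The FPKM of each locus was deposited with a 95% interval, and for single-end reads it equals RPKM. Transcripts were assembled in each library separately: Nanos2 and Lin28a had reference entries in both files, 6 members had assembled entries in both, and Dnd1 had 1 of each. Assembled models of different length change an RPKM.

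Every member had 1 entry per file, and entries of other symbols were summed. Ratios were taken on FPKM as deposited, and log2 fold changes with a pseudocount of 0.1, which understates changes of low genes. Interval bounds were read as 2 SD, which gave the SE and, with counting error alone, the implied reads. Groups came from the labels. With 1 library per condition no test was possible. The members and lists were chosen with earlier results of these data known. Dazap1, Cnot3, Dgcr8, Hmga1, Igf2bp1, Meioc, Pdgfra, Hba-a1 and Hbb-bt were not matched and were not used here, and 1 gene of the lists is not reported here. The naming rule took the members, Klf9, sex-linked transcripts and, per list, genes past 2-fold with RPKM of at least 1 and up to 4 with the highest mean, from which those described were taken. Alternatives were pseudocounts of 0.01 and 1, rescaling to the same upper quartile or sum, the highest entry, a 1.5-fold threshold, RPKM of at least 1 and widened intervals. The calls were tested on simulated data with counting error alone and with planted changes larger than the difference of any member. Python 3.11.15, numpy 2.4.6, pandas 2.3.3 and matplotlib 3.10.9 were used.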

Additional observations from a re-analysis of the deposited data

How the results depend on the processing

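No paired analysis was possible because each condition had 1 library, and no library could be left out. Under the 5 alternatives for the log2 fold change, it ran from -0.50 to -0.43 for Nanos3, -0.28 to -0.22 for Dnd1, -0.20 to -0.14 for Lin28a, 0.10 to 0.17 for Dazl, 0.16 to 0.23 for Lin28b and 0.17 to 0.24 for Pum2, without a change of sign. Rescaling raised all Klf9-OE values by 0.03 (same upper quartile) or 0.06 (same sum) on the log2 scale, and moved Ddx4, Elavl2 and Nanos2 across 0, to at most 0.03, 0.06 and 0.01. Intervals were apart for 5 members as deposited, for 4 with widening and for 6 with either rescaling, which added Lin28b as higher. The list counts above are as deposited. With widening, 9 gonad somatic markers were higher and 1 lower, and 5 RNA targets were higher and 4 lower. The counts were 2 and 2 for CCR4-NOT and P-body genes, 2 and 2 for let-7 targets, and 8 and 4 for other RNA-binding protein genes. The shares of all genes were then 11.7% and 16.9%. No member differed 1.5-fold. At any level above 0, 5 of 7 macrophage and blood markers were past 2-fold, 2 higher and 3 lower. No share of genes at any level is given beside this count. With RPKM of at least 1 it was 1 of 2, Csf1r, where 7.72% of all genes at that level were. The others past 2-fold were below an RPKM of 1 with overlapping intervals. Depth limits Nanos2 and Nanos3 most, with control intervals of 15.6% and 10.99% of the value on either side.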

Other observations

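The interval of Elavl2 was 4.88% of the value on either side in control PGCs and 9.71% in Klf9-OE PGCs, although the RPKM was 31.3 and 31.2.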
